A study of Mus musculus with 15 samples.

Results

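The ribosome of the cytosol is built from a small and a large subunit, and each of its proteins is encoded by its own gene. Described here are 52 of these cytosolic ribosomal protein genes in mouse cortex, chosen by gene symbol from a table of 56748 genes. They hold 21 genes of the small subunit, 28 of the large subunit and the 3 genes of the large subunit's stalk (Rplp0, Rplp1 and Rplp2). All 52 symbols matched 1 row each, and all 52 passed the filter on low counts that left 22998 genes to be tested.

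The RNA came from the cortex of wild-type C57BL/6J mice 3 hours after a single session of repetitive transcranial magnetic stimulation, in which a coil held over the head induces current in the brain. One group received intermittent theta-burst stimulation (iTBS), one continuous theta-burst stimulation (cTBS) and one sham stimulation, with 5 animals and 5 libraries in each. iTBS and cTBS deliver the same kind of short, fast bursts and differ in whether the bursts are broken by pauses. The labels name the dissected cortex in 2 ways, as somatosensory and as sensorimotor, and the animals' age is not given in them.

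Ribosomal protein mRNAs are among the most abundant mRNAs of most cells, and most of their proteins are needed in equal numbers for each ribosome. Many of these mRNAs start with a run of pyrimidines at the 5′ end, the TOP motif (terminal oligopyrimidine), through which the kinase complex mTORC1 regulates their translation. In neurons they are also found in dendrites and axons, where local protein synthesis accompanies changes in synaptic strength. Malat1, against which these genes were also described, is a long noncoding RNA that stays in the nucleus.

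The starts of transcription of several genes to which the results return are shown first, because the pyrimidine run is the feature this gene family is known for. Each line is the sense strand from 15 bases before to 15 bases after the annotated start, 5′ to 3′, taken from RefSeq's annotation of build GRCm38.p6, which is not the build (GRCm39) that the submitters' processing notes name. Capitals mark the longest run of pyrimidines in the window. The first 4 genes had the smallest p for a lower level where Malat1 was higher, and Rps10 was the 1 gene called as higher where Malat1 was higher.
Rps26 (chr10:128626492-128626521, minus strand): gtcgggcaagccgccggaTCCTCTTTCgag
Rpl28 (chr7:4792950-4792979, plus strand): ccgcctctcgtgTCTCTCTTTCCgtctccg
Rpl15 (chr14:18270972-18271001, minus strand): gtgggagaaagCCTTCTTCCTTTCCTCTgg
Rpl4 (chr9:64173372-64173401, plus strand): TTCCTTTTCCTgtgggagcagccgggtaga
Rps10 (chr17:27635230-27635259, minus strand): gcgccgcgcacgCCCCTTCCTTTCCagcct
Rps6 (chr4:86857353-86857382, minus strand): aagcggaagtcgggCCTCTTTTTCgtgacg

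The next 3 genes are among the 5 with the smallest p in both comparisons that involve cTBS or, for Rps13, in cTBS against sham. Their annotated start windows hold only short runs. The run of Rps13 reaches the end of its window, and that of Rpl4, above, lies wholly before the annotated start. Whether the annotated starts are those used in this tissue was not tested, so a run can be missed or misplaced.
Rps4x (chrX:102189377-102189406, minus strand): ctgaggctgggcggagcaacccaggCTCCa
Rpl10 (chrX:74270801-74270830, plus strand): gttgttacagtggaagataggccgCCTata
Rps13 (chr7:116334176-116334205, minus strand): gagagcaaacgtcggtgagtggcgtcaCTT

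Of the 52 genes, 43 had a start in that annotation. A run of at least 8 pyrimidines lay in the 30-base window of 18 of the 43 (41.9%), against 13.9% of 27025 genes. A run of at least 8 purines, the mirror feature, lay in 2 of the 43 (4.65%), against 15.3% of all. Within the 300-base window from 250 bases before to 50 after the start, CCGGAAG, the core of the sites of ETS family factors, was found on either strand in 19 (44.2%), against 9.93% of all. AAGATGG, a YY1 core, was found in 4 (9.3%, against 7.28%) and TATAAA in 4 (9.3%, against 15.7%). A match is a string of letters and not a measured binding site.

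The 15 libraries held from 15385070 to 47807723 counts, and 32299 to 35449 genes had a count in each. Levels are given as CPM, counts scaled to a common library size and corrected between libraries by the trimmed mean of M values (TMM), or as log2 CPM. As a check of the tissue, markers of excitatory cortical neurons (Slc17a7, Camk2a and others) summed to 3900 to 5644 CPM in every library. Markers of striatal neurons, which a cortical dissection should mostly lack, ranged from 223 to 1045 CPM, and markers of choroid plexus from 5.25 to 278 CPM.

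The 52 genes summed to between 3325 and 5313 CPM per library. Per kilobase of exon, the median gene stood at 37.2 CPM, and the highest were the stalk gene Rplp1 at 203, the small subunit gene Rps15 at 185 and the large subunit gene Rpl4 at 122. The length is that of all annotated exons of a gene together, from 499 bases (Rplp1) to 6256 (Rps24), with a median of 2011. These values therefore also depend on how much exon is annotated for each gene. Most reads, without regard to length, came from Rpl3 (257 CPM), which helps shape the peptidyl transferase centre, Rpl4 (245 CPM), which lines the exit tunnel of the nascent chain, and Rps2 (144 CPM), which sits at the mRNA entry side of the small subunit. Fewest came from Rpl24 (0.305 CPM), Rps10 (1.35 CPM) and Rpl35 (24.1 CPM).

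Rps10 and Rpl24 were thus far below the rest of a family whose proteins are mostly needed in equal numbers. Rps10 had 26 to 69 counts per library and Rpl24 had 5 to 17, so their values rest on few reads. Each overlaps, on the same strand, the exons of another annotated gene (RPS10-NUDT3 for Rps10, Gm28037 for Rpl24), and both partner genes are listed at 0 in all 15 libraries. Such an overlap was found for 3 of the 52 genes. The other was Rpl19, which was not low (45.2 CPM, with its partner Gm11629 at 0.0883 CPM). Rps10 also has 4 rows of annotated pseudogenes that together held 7.78 CPM, which is 572% of its own level. How reads shared between genes were counted is not given in the sources used here, so the Rps10 and Rpl24 rows are uncertain as measures of their genes. Pseudogene rows were found for 38 of the 52 genes (182 rows), and they exceeded 10% of the gene's own level for 13. The largest sum belonged to Rps12, whose 24 rows held 116 CPM, or 272% of its own level, and the median over the 38 was 4.23%. Genes named below are also among the 13, such as Rpl15 (45.8%), Rpl10 (45.1%), Rps6 (35.3%) and Rps13 (21.9%). Whether shared reads affect their values was not tested. The exons of 14 of the 52 genes overlap a gene on the opposite strand; the kit keeps strand, but the strand setting of the counting is not given.

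The first question was how the family's level varied among animals. In each library the log2 CPM of the 52 genes was averaged. This mean was 5.78, 6.00, 5.85, 6.04 and 5.79 in sham animals 1 to 5. It was 6.01, 5.63, 5.84, 5.84 and 5.80 in iTBS animals 1 to 5 and 6.26, 5.88, 6.14, 6.13 and 6.09 in cTBS animals 1 to 5. The lowest library was iTBS 2 and the highest was cTBS 1, and cTBS 2 fell inside the range of the other groups while the remaining 4 cTBS libraries lay above every sham and iTBS library. The group means were 5.89 ± 0.12 (SD, n = 5) for sham, 5.82 ± 0.14 (SD, n = 5) for iTBS and 6.10 ± 0.14 (SD, n = 5) for cTBS. In bulk tissue, a change in the number of cells of a type and a change in RNA per cell cannot be told apart.

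**Figure D1:**
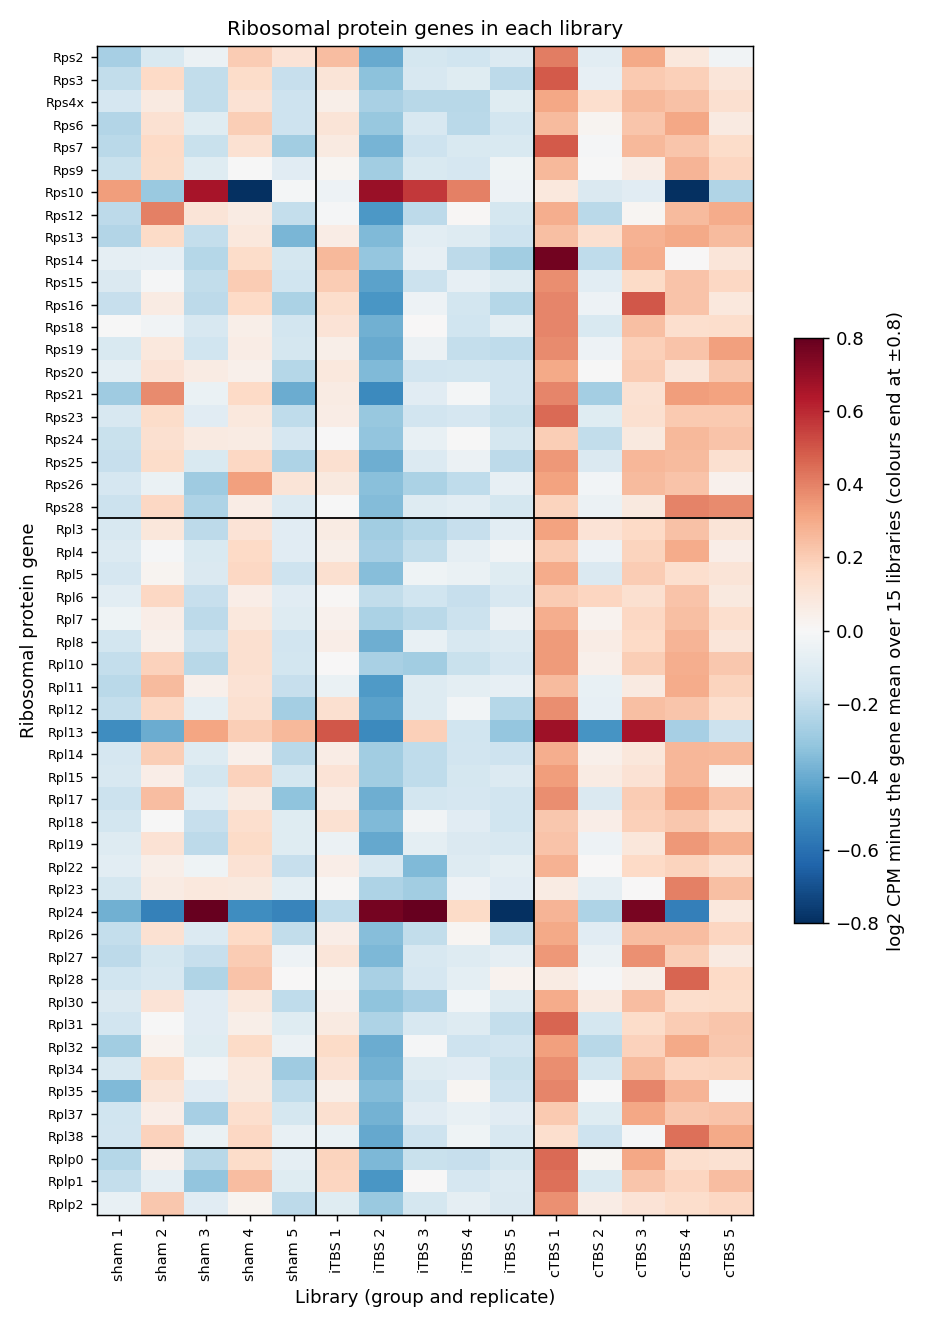
Heat map of the 52 genes (rows, small subunit, large subunit and stalk separated by lines) in the 15 libraries (columns, groups separated by lines). Colour gives log2 CPM minus the gene's mean over the libraries, with colours ending at 0.8 either way. Columns iTBS 2 (blue) and cTBS 1 (red) stand out along nearly the whole height, and the rows of Rps10, Rpl24 and Rpl13 depart from the pattern of their columns.

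The genes moved together from library to library, as the heat map shows by its columns. After subtracting group means, a gene's correlation with the mean of the other 51 ranged from -0.51 (Rps10) to 0.98 (Rps25), with a median of 0.84. These are descriptions over 15 libraries, and all genes of a library share its depth and scaling. A gene's SD within groups had a median of 0.165 in log2 units, and 0.0833 once the mean of the other genes in the same library was subtracted. The subunits kept step, with the mean of the small subunit minus that of the large lying between -0.072 and 0.017 in every library.

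Rpl13, singled out after its values were seen, had the widest spread within groups of the 50 genes other than Rps10 and Rpl24. It codes for a large subunit protein. Its level was 56.1, 60.2, 98.5, 90.8 and 94.7 CPM in sham animals 1 to 5, and 112, 55.6, 90.3, 70.9 and 63.9 CPM in iTBS animals 1 to 5. In cTBS animals 1 to 5 it was 127, 57.2, 125, 66.1 and 70.5 CPM. High and low libraries occurred in all 3 groups, with a within-group SD of 0.449 in log2 units, and its correlation with the mean of the other genes was 0.56. Rpl28 and Rpl23 had lower correlations (0.45 and 0.52) with within-group SDs of 0.166 and 0.145.

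The second question was whether the family differed between iTBS and sham. No gene was called at an adjusted p under 0.05 by edgeR's quasi-likelihood test with Benjamini-Hochberg adjustment over all 22998 genes; over all genes the share called was 0%. At an unadjusted p under 0.05 none of the 52 differed, against 1.93% of all genes. DESeq2 called 0 of the 52 as well. The log2 fold change was below 0 for 50 of the 52, against 50.5% of all genes, and its median was -0.08, against -0.001 over all genes. The gap between the group means of the family, 5.82 and 5.89, was smaller than the SD between animals of a group, 0.132 pooled over the 3 groups.

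Rpl38, a large subunit protein studied for its part in translating particular mRNAs in development, had the smallest p. It stood at 47.1, 59.4, 50.5, 58.8 and 50.2 CPM in sham animals and at 50.4, 39.4, 46.7, 51.1 and 47.9 CPM in iTBS animals. The groups overlapped, and iTBS 2 was the lowest of the 10. The log2 difference was -0.18 ± 0.11 (SE), with an edgeR adjusted p of 1. Of the others with the smallest p, Rpl6 differed by -0.11 ± 0.07 and Rpl11 by -0.16 ± 0.10, and Rplp2, of the stalk that recruits elongation factors, by -0.13 ± 0.08. Rps12 had the lowest value (-0.20 ± 0.13), and the thinly covered Rps10 and Rpl24 the highest (0.30 ± 0.28 and 0.38 ± 0.41).

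Leaving out single libraries moved the median of the 52 genes between -0.15 (without iTBS 1) and -0.02 (without sham 4). Rpl5, which with Rpl11 binds the p53 regulator Mdm2 outside the ribosome, was at -0.03 ± 0.09, and its sign changed without sham 4 (0.04). Rplp0 and Rplp1 were at -0.06 ± 0.10 and -0.02 ± 0.12 and also changed sign without sham 4 (0.0082 and 0.086).

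The next question was whether the family differed between cTBS and sham. The values were higher in cTBS for 51 of the 52 genes, against 46.5% of all genes, and the median log2 difference was 0.22, against -0.02 over all genes. No gene passed the adjusted threshold by edgeR (percent called over all genes, 0%), the smallest adjusted p of the family being 0.144. At an unadjusted p under 0.05, 33 of the 52 were higher (63.5%) and 0 lower, against 6.80% higher and 17.6% lower over all genes. By subunit, 12 of 21 small subunit genes, 18 of 28 large subunit genes and all 3 stalk genes were among the 33. DESeq2 called none of the 52 either, and 132 of all 22998 genes (20 higher, 112 lower). At an unadjusted p under 0.05 it had 39 of the 52 higher, and 2286 of all genes.

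Rps13, a small subunit protein, had the smallest p. Its level was 48.2, 62.9, 49.7, 60.02 and 44.0 CPM in sham animals 1 to 5 and 66.9, 62.0, 68.8, 70.0 and 67.6 CPM in cTBS animals 1 to 5. Only cTBS 2 lay within the sham range, just under sham 2. The log2 difference was 0.34 ± 0.09 (SE), with an edgeR adjusted p of 0.144.

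Rps4x, the X-linked small subunit gene, was the 1 gene of the 52 whose groups did not overlap in this comparison (0.626% of all genes did so in this direction). It stood at 75.4, 87.0, 72.3, 89.6 and 73.8 CPM in sham animals and at 103, 90.9, 99.1, 97.3 and 90.4 CPM in cTBS animals. The lowest cTBS library, cTBS 5, was just above the highest sham library, sham 4. The log2 difference was 0.27 ± 0.07 (SE), with an edgeR adjusted p of 0.144.

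Rps19, the gene most often mutated in Diamond-Blackfan anaemia, differed by 0.27 ± 0.09, Rpl10 by 0.26 ± 0.09 and Rpl7 by 0.21 ± 0.07, each with an edgeR adjusted p of 0.144. Rps16 had the highest value after Rps13, at 0.32 ± 0.12. Rps6, the small subunit protein phosphorylated by S6 kinases downstream of mTORC1, differed by 0.20 ± 0.09, and Rpl22 by 0.17 ± 0.08. The stalk genes Rplp0, Rplp1 and Rplp2 differed by 0.28 ± 0.10, 0.27 ± 0.12 and 0.19 ± 0.08. The lowest values were those of Rps10 (-0.27 ± 0.28), the 1 gene below 0, and Rps12 (0.09 ± 0.13).

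The library sham 4 weighed on this comparison. It had the lowest Malat1 of the sham group (1568 CPM, against 4690 to 10101 in the other 4) and the highest mean of the 52 genes within it. Without sham 4, edgeR called 35 of the 52 as higher in cTBS at an adjusted p under 0.05, and 5726 genes in all (2145 higher, 3581 lower), and the median was 0.31. Leaving out any other single library left the number of the 52 called at 0. The number higher at an unadjusted p under 0.05 ranged from 20 (without sham 1, sham 3 or sham 5) to 44 under these omissions. Without sham 1, sham 3 or sham 5, the number over all genes was 1036, 788 or 1196.

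The third comparison of groups set iTBS against cTBS, with no sham library in the contrast itself. The 3 comparisons share their groups, so their values are given side by side and none supports another. The values were lower in iTBS for 50 of the 52 genes, against 46.1% of all genes, with a median log2 difference of -0.30 against 0.03 over all genes. No gene passed the adjusted threshold by edgeR (percent called over all genes, 0%), the smallest adjusted p of the family being 0.0838. At an unadjusted p under 0.05, 48 of the 52 were lower (92.3%) and 0 higher, against 10.6% lower and 20% higher over all genes. The iTBS and cTBS libraries did not overlap for 9 of the 52 (17.3%), all lower in iTBS, against 1.70% of all genes: Rps4x, Rps13, Rpl3, Rpl6, Rpl8, Rpl10, Rpl19, Rpl30 and Rplp2, a list formed from its values.

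Rps4x had the smallest p here. Its level was 85.4, 69.0, 70.9, 70.8 and 77.3 CPM in iTBS animals 1 to 5, and all 5 lay below the lowest cTBS library (90.4 CPM). The log2 difference was -0.36 ± 0.07 (SE), with an edgeR adjusted p of 0.0838.

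Rpl10, a large subunit protein that joins late in assembly near the peptidyl transferase centre, stood at 114, 95.1, 93.7, 100.4 and 104 CPM in iTBS animals and at 144, 117, 130, 139 and 132 CPM in cTBS animals. The highest iTBS library, iTBS 1, was just below the lowest cTBS library, cTBS 2. The log2 difference was -0.38 ± 0.09 (SE), with an edgeR adjusted p of 0.0838, and it was the lowest of the 52.

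Rpl3, the gene with most reads, stood at 267, 211, 218, 225 and 241 CPM in iTBS animals and at 319, 276, 285, 301 and 275 CPM in cTBS animals. The groups were apart by a narrow gap between iTBS 1 and cTBS 5. The log2 difference was -0.33 ± 0.08 (SE), with an edgeR adjusted p of 0.0838.

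Of the others with the smallest p, Rpl6 differed by -0.29 ± 0.07, Rpl7 by -0.30 ± 0.07 and Rps19 by -0.37 ± 0.09. Rps6 differed by -0.31 ± 0.09, Rpl22, an RNA-binding protein of the large subunit, by -0.26 ± 0.08, and the stalk genes Rplp0, Rplp1 and Rplp2 by -0.34 ± 0.10, -0.30 ± 0.12 and -0.31 ± 0.08. Rpl5 and Rpl11 differed by -0.20 ± 0.09 and -0.30 ± 0.10. The highest values were those of Rps10 (0.57 ± 0.28) and Rpl24 (0.11 ± 0.39).

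Whether genes were called in iTBS against cTBS turned on the tool and on single libraries. DESeq2 called 36 of the 52 as lower in iTBS and 2618 genes in all (945 lower, 1673 higher). With edgeR, 39 were called without sham 4, 46 without iTBS 1 and 25 without cTBS 5, and 0 without any other single library. Over all genes, 3637, 4474 and 3380 were called in these 3 settings, of which 1249, 2017 and 949 were lower. The sham libraries enter through the shared estimate of the spread, the filter on low counts and the scaling. Without sham 4, 23508 genes were tested instead of 22998. The median log2 difference over all genes was then -0.004 instead of 0.027. Which of these changed the calls was not tested. In these 4 settings, 25 of the 52 genes were called every time and 47 at least once. The same overlap was not counted over all genes, and the settings share most of their libraries.

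**Figure D2:**
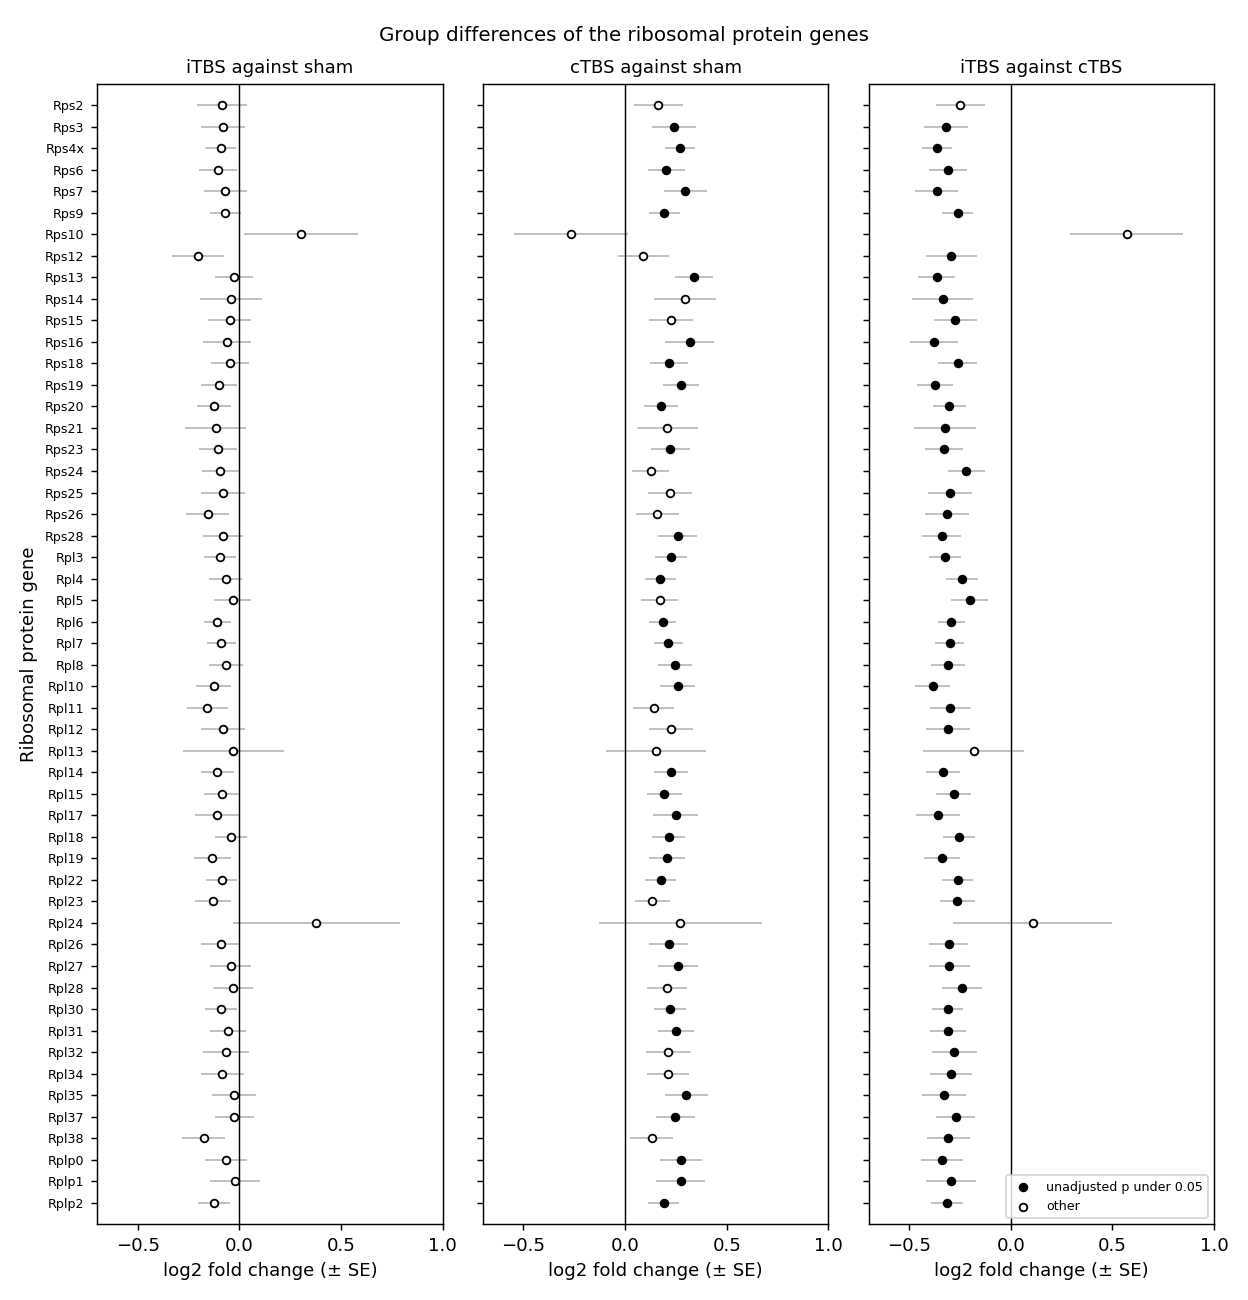
Log2 fold change of each of the 52 genes (points, with SE as bars) in the 3 comparisons by edgeR, with filled points at an unadjusted p under 0.05. The points lie just below 0 for iTBS against sham, near 0.22 for cTBS against sham and near -0.30 for iTBS against cTBS, and Rps10 and Rpl24 have the widest bars with Rpl13.

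The last question was how the family stood against Malat1 in the same libraries. Malat1 stood at 7925, 5769, 10101, 1568 and 4690 CPM in sham animals 1 to 5. It stood at 2957, 9583, 6405, 8478 and 3479 CPM in iTBS animals 1 to 5, and at 1523, 3667, 2933, 986 and 3839 CPM in cTBS animals 1 to 5. All 5 cTBS libraries were under 3900 CPM, and the other groups held both low and high libraries. The difference in mean log2 Malat1 was 0.13 for iTBS minus sham, -1.16 for cTBS minus sham and 1.29 for iTBS minus cTBS. The two-sided exact permutation p-values were 0.833, 0.0873 and 0.0635 (0.833, 0.131 and 0.131 after Benjamini-Hochberg adjustment over the 3), where 5 against 5 allows 0.00794 at the smallest. Without sham 4 the difference for cTBS minus sham was -1.58 (exact permutation p = 0.0159, adjusted 0.0476).

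Libraries with more Malat1 had less of the ribosomal protein mRNAs. Over the 15 libraries, the mean log2 level of the 52 genes and log2 Malat1 had a Pearson r of -0.77 and a Spearman rho of -0.75. After subtracting group means, r was -0.63 and rho -0.67. Without the 2 libraries farthest from the median Malat1, these r values were -0.77 and -0.62. Both measures come from the same libraries and share their depth and scaling: log2 Malat1 and log2 total counts had an r of -0.73, and the 52 genes' mean and log2 total counts 0.49, or 0.21 after subtracting group means.

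**Figure D3:**
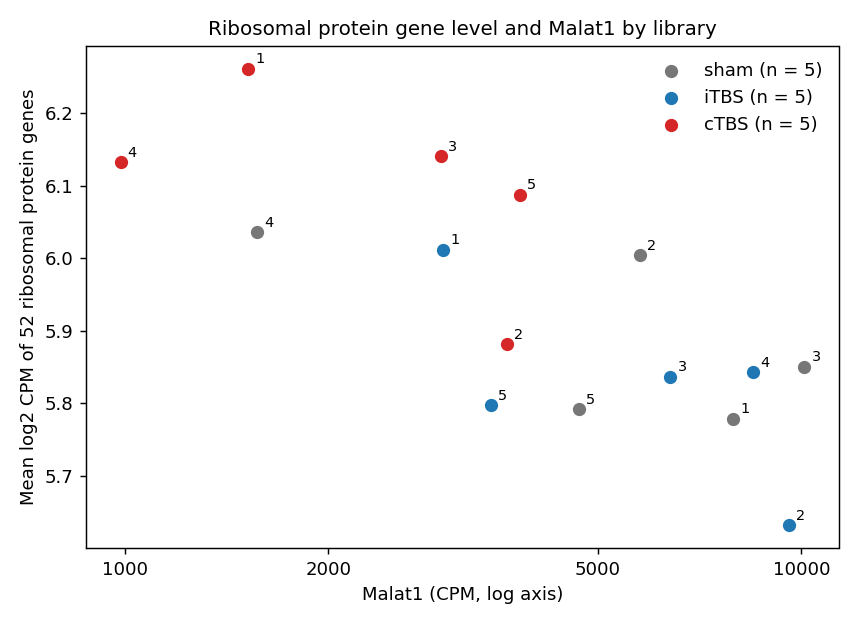
Mean log2 CPM of the 52 genes (vertical) against Malat1 CPM (horizontal, log axis) in the 15 libraries, coloured by group and numbered by replicate. The points run from the upper left, with cTBS 1 and cTBS 4, to the lower right, with iTBS 2 at 5.63, and sham 4 lies on the side of low Malat1 with the cTBS libraries.

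Gene by gene, the slope on log2 Malat1 was fitted in a model with a term for each group, so it describes libraries within groups. The slope was below 0 for 50 of the 52, against 46.8% of all genes, with a median of -0.11 per doubling of Malat1, that is -7.16%, against 0.015 over all genes. edgeR called 28 of the 52 as lower with more Malat1 (53.8%, against 15.9% of all genes) and 1 as higher (1.92%, against 28.1% of all genes) at an adjusted p under 0.05. The 28 were 10 of 21 small subunit genes, 16 of 28 large subunit genes and 2 of the 3 stalk genes. Malat1 was read from the same libraries as the genes and set no experimental groups, and 44.0% of all genes were called in either direction.

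Rps26, a small subunit protein at the mRNA exit channel, had the smallest p. It stood at 63.8, 67.4, 57.5, 87.9 and 75.2 CPM in sham animals 1 to 5, at 74.0, 55.6, 58.7, 60.8 and 66.7 CPM in iTBS animals and at 87.3, 68.9, 83.5, 81.8 and 71.8 CPM in cTBS animals. In each group the library with the least or second least Malat1 had the highest level. Its slope was -0.18 ± 0.03 (SE) per doubling, which is -11.9%, with an edgeR adjusted p of 0.000115.

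Rpl28, Rpl15 and Rpl4, all of the large subunit, followed with slopes of -0.16 ± 0.03, -0.14 ± 0.03 and -0.12 ± 0.02 (edgeR adjusted p of 0.000327, 0.000737 and 0.000923). Rpl4 ran from 203 CPM in iTBS 2, which had the most Malat1 of its group, to 300 CPM in cTBS 4, which had the least of all 15. Rps6 had a slope of -0.13 ± 0.03 and an edgeR adjusted p of 0.00263. Of the stalk genes, Rplp1 and Rplp0 were called (-0.17 ± 0.04 and -0.14 ± 0.04, edgeR adjusted p of 0.00408 and 0.00836) and Rplp2 was not (-0.04 ± 0.04, adjusted p of 0.367). Rps13 and Rps19, which were among the 5 smallest p-values of cTBS against sham, did not pass here (both -0.09 ± 0.04, edgeR adjusted p of 0.094 and 0.0804).

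Rps10 was the gene called in the other direction. It stood at 1.62, 1.04, 2.03, 0.71 and 1.27 CPM in sham animals 1 to 5, at 1.25, 2.07, 1.90, 1.69 and 1.24 CPM in iTBS animals and at 1.36, 1.18, 1.21, 0.626 and 1.09 CPM in cTBS animals. Its lowest libraries, cTBS 4 and sham 4, were among the 3 with least Malat1, and its highest, iTBS 2 and sham 3, were the 2 with most. Its slope was 0.42 ± 0.10 per doubling (edgeR adjusted p of 0.00258). Rpl24, the other thinly covered row, had a slope of 0.38 ± 0.17 (edgeR adjusted p of 0.087).

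**Figure D4:**
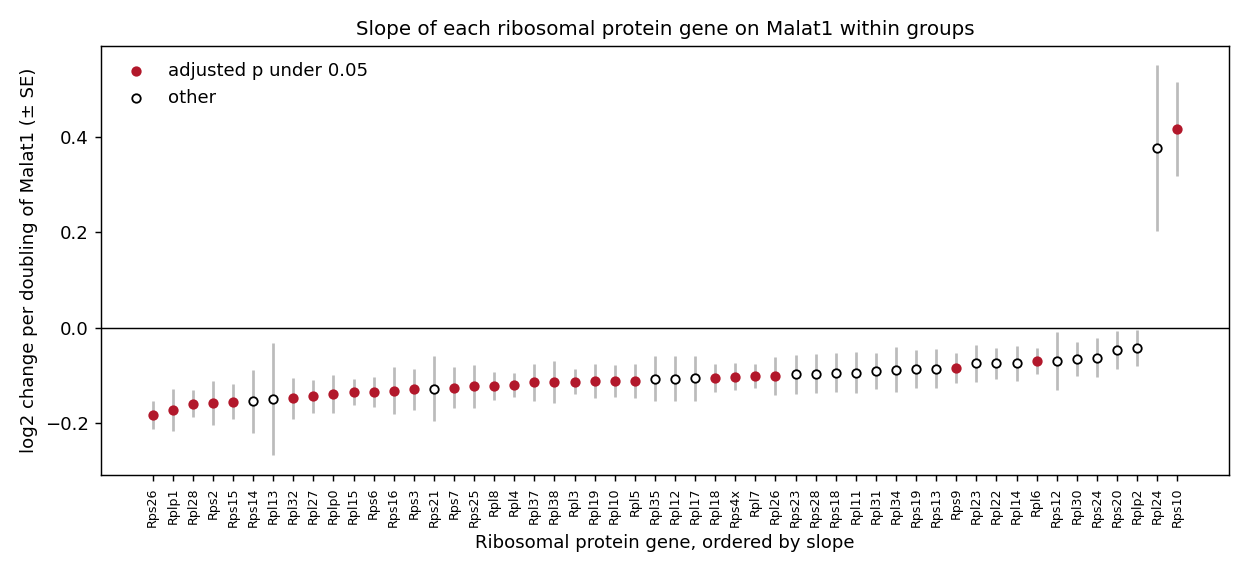
Slope of each of the 52 genes on log2 Malat1 within groups (points, with SE as bars), ordered from the most negative, with red points at an adjusted p under 0.05 by edgeR. The slopes run from -0.18 for Rps26 to -0.04 for Rplp2, and then jump to 0.38 for Rpl24 and 0.42 for Rps10.

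The number of slopes called rested on how the libraries were scaled. With library totals alone, 8 of the 52 were called (7 lower, 1 higher) and the median slope was -0.06; over all genes 755 were then called lower and 7647 higher, against 3659 and 6461 with TMM. With DESeq2's size factors 43 of the 52 were called (42 lower, 1 higher), and over all genes 4662 were called lower and 6203 higher. Over all genes the median slope was 0.066 with totals and -0.002 with size factors. Among single omissions the number called ran from 20 (without sham 4) to 41 (without iTBS 5). Over all genes, 6493 of 23507 and 10625 of 23613 were then called, in that order.

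The group differences were also fitted with log2 Malat1 as a covariate. For cTBS against sham the median over the 52 genes was then 0.10 instead of 0.22, and 2 of the 52 were higher at an unadjusted p under 0.05 instead of 33, where 591 of all 22998 genes were higher instead of 1565. For iTBS against cTBS it was -0.17 instead of -0.30, and 16 of the 52 were lower instead of 48, where 833 of all genes were lower instead of 2447. For iTBS against sham it was -0.07 instead of -0.08. None of the 52 was called in any of the 3 with this covariate.

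Genes with and without a pyrimidine run in the window about the annotated start, as counted at the outset, had like values. The median slope on Malat1 was -0.11 for the 18 genes with a run of at least 8 and -0.11 for the 25 without. Their median log2 differences were 0.20 and 0.23 for cTBS against sham and -0.29 and -0.31 for iTBS against cTBS. These medians are descriptions, and the difference between the sets was not tested.

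Other genes of the ribosome and of translation were set beside the 52 by their counts and medians. Among 31 further ribosomal protein genes and relatives, the median was 0.22 for cTBS against sham (14 higher at an unadjusted p under 0.05), -0.29 for iTBS against cTBS (22 lower) and -0.10 for the slope (17 called lower, 1 higher). Rpl37a had their smallest p for cTBS against sham (0.33 ± 0.10) and Rpl21 for iTBS against sham (-0.20 ± 0.09). Of 36 initiation factor genes, which bring mRNA and initiator tRNA to the ribosome, 16 were higher in cTBS than sham at an unadjusted p under 0.05 (median 0.11), and 21 slopes were called lower. Eif3h had the smallest p for iTBS against cTBS, at -0.31 ± 0.08. Of 9 elongation factor genes, 4 were higher at an unadjusted p under 0.05 (median 0.18), among them Eef1b2 at 0.24 ± 0.08, and 4 slopes were called lower.

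Genes of ribosome biogenesis and of mTOR signalling had medians near 0 in the comparisons that involve cTBS. The 46 ribosome biogenesis genes, which process ribosomal RNA and assemble subunits, had a median of -0.02 for cTBS against sham (2 higher and 3 lower at an unadjusted p under 0.05) and -0.05 for iTBS against cTBS. Polr1c, a subunit shared by RNA polymerases I and III, had their smallest p in both (0.21 ± 0.07 and -0.25 ± 0.07), and Nop16 for iTBS against sham (-0.29 ± 0.08). In iTBS against sham the biogenesis genes had a median of -0.07, beside -0.08 for the 52 genes. There 35 of the 46 were below 0, with 3 lower and 0 higher at an unadjusted p under 0.05. Of their slopes, 7 were called lower and 7 higher. The 21 genes of mTOR signalling and TOP mRNA binding had a median of -0.02 when cTBS was compared with sham and of 0.04 when iTBS was compared with cTBS, with 6 slopes called lower and 3 higher. Akt1, a kinase upstream of mTORC1, was at -0.22 ± 0.08 for iTBS against cTBS, and Tia1, which binds TOP mRNAs, at -0.56 ± 0.21 for cTBS against sham. The 10 noncoding hosts of small nucleolar RNAs tested had medians of -0.06 for cTBS against sham, 0.13 for iTBS against cTBS and 0.18 for the slope, of which 5 were called higher and 0 lower. No gene of these lists was called in any of the 3 group comparisons by edgeR.

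The respiratory chain, proteasome and mitochondrial ribosome lists had medians on the same side of 0 as the ribosomal protein genes. The 33 nuclear-encoded respiratory chain genes had a median of 0.20 in the contrast of cTBS with sham and of -0.24 in that of iTBS with cTBS, with 23 slopes called lower. The 31 proteasome genes had medians of 0.14 and -0.20 with 24 slopes called lower, and the 77 mitochondrial ribosomal protein genes 0.12 and -0.15 with 27 called lower and 2 higher. The smallest p for cTBS against sham belonged to Sdhb (0.28 ± 0.08), Psmb3 (0.25 ± 0.07) and Mrps7 (0.23 ± 0.07) in these lists. In the opposite direction, the 10 nuclear-retained noncoding RNAs, Malat1 itself among them, had medians of -0.998 and 1.02. Kcnq1ot1 was at -1.41 ± 0.42 for cTBS against sham.

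**Figure D5:**
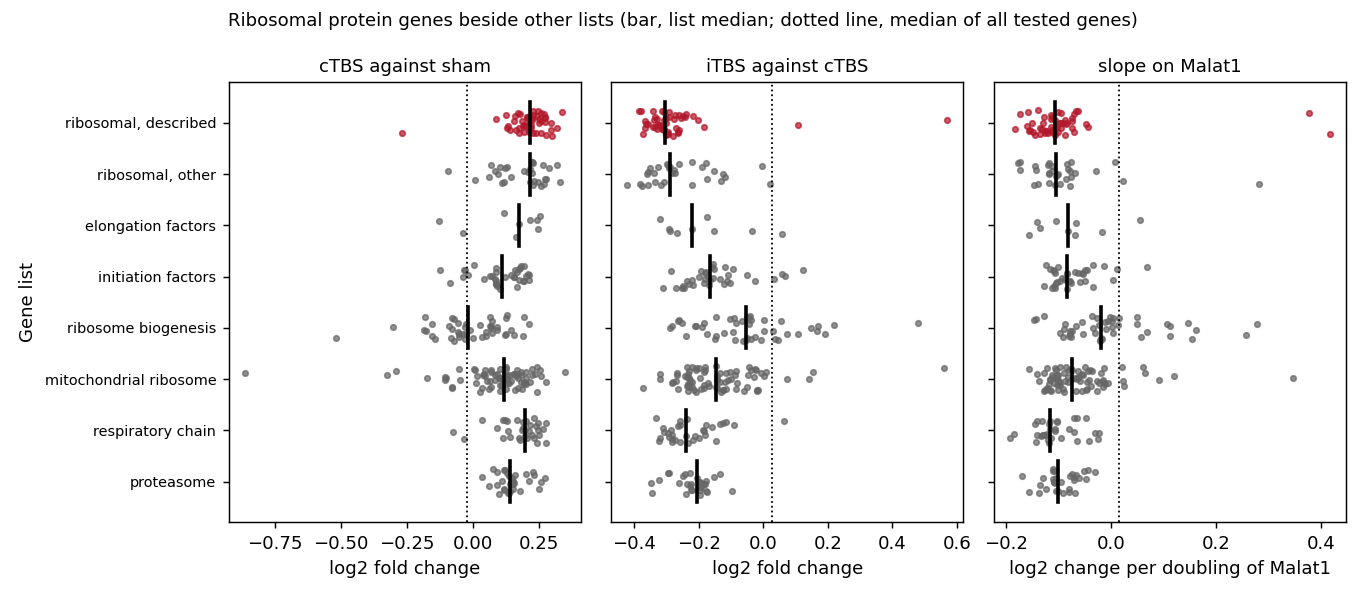
Values of the 52 genes (red) and of 7 other lists (grey, 1 point per gene) for cTBS against sham, iTBS against cTBS and the slope on Malat1, with a bar at each list's median and a dotted line at the median of all tested genes. The medians of the 52 genes, the other ribosomal genes and the respiratory chain lie on 1 side of the dotted line within each panel, with single genes such as Rps10 across it, and the biogenesis genes lie about it.

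Markers of other cells differed between groups in both directions. All 7 striatal markers were higher in cTBS than sham (median 0.68), with sums of 223 to 803 CPM in sham, 324 to 1008 in iTBS and 345 to 1045 in cTBS. All 7 oligodendrocyte markers were higher too (median 0.22), with sums of 2226 to 3227, 1967 to 2941 and 2377 to 3816 CPM, as were all 7 microglial markers (median 0.18), with sums of 190 to 236, 199 to 238 and 219 to 257 CPM. All 7 inhibitory neuron markers (median 0.17), all 6 astrocyte markers (0.12) and all 4 markers of oligodendrocyte precursors (0.14) were higher as well, as were 5 of 7 endothelial and mural markers (0.06) and 5 of 6 meningeal markers (0.27). Lower in cTBS than sham were 5 of 6 choroid plexus markers (median -0.37), 5 of 6 thalamic markers (-0.39) and 5 of 8 excitatory neuron markers (-0.06). No striatal, oligodendrocyte or microglial marker was at 0, and no marker of any list was called by edgeR in a group comparison. With Malat1 and the striatal markers both as covariates, the medians of the 52 genes were 0.10 in the contrast of cTBS with sham and -0.17 in that of iTBS with cTBS, with 4 and 16 of them at an unadjusted p under 0.05 in the direction of the median (578 and 673 of all genes). Without the 3 libraries with most of the choroid plexus transcript Ttr (sham 2, sham 5 and cTBS 4), the medians were 0.27 and -0.33. The part of the other markers in the result was not tested.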

How the data were processed

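Bulk RNA-seq of total RNA (RNeasy Mini extraction, stranded libraries after ribosomal RNA depletion, per the labels' protocols) was made from 15 mice, 5 per group. The authors deposited raw counts per gene and log2-scale values from DESeq2's variance-stabilizing transformation; fastp, STAR, DESeq2 and build GRCm39 are named per the submitters' processing notes, and which counter, annotation release and strand setting were used is not given in the sources used here. No deposited column lacked a sample. Symbols, matched for 52073 of the 56748 gene identifiers (97.7% of counts), exon lengths and overlaps came from an annotation of build GRCm38, so no gene coordinates are given apart from RefSeq start windows.

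Counts were tested in R 4.3.3 with edgeR 4.0.16 (TMM scaling, filterByExpr by group, quasi-likelihood F test over all 15 libraries, 1 term per group, Benjamini-Hochberg over all 22998 tested genes, threshold 0.05); these genes held 99.9% of counts. SE is the fold change over the root of F. log2 CPM used a prior count of 2. Malat1 CPM was taken over the library total without Malat1. The fit was tested on simulated data. DESeq2 1.42.0 and limma 3.58.1 served as alternatives, the latter also on the deposited log2 values. Replicate numbers come from the labels, which do not say that a number pairs animals across groups. The depth of each library was 15385070 counts or more. The p-values judge a group difference or a slope against the spread between libraries, each from its own animal. Differences in dissection or library preparation cannot be separated from that spread.

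Members and lists were chosen with earlier results of these data known. Genes were named by rule: the 5 smallest p per comparison, the 3 highest and 3 lowest mean CPM, the 2 highest and 2 lowest fold changes, 11 genes of known roles, and in the other lists the smallest p, printed for the comparisons described; some of these are not reported here. The alternatives that left out the 3 libraries with most Ttr or added striatal markers were chosen after seeing the data.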

Additional observations from a re-analysis of the deposited data

Results flagged for a closer look

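In 81 sets of 5 libraries (27 quantities in 3 groups), the most extreme library was compared with the range of its group, a check that flags about 1 in 20 sets by chance. It picked out 2. Rpl11 in iTBS 2 stood at 34.1 CPM, with the nearest other iTBS library at 43.4 CPM. Rpl24 in sham 3 stood at 0.52 CPM, with the nearest other sham library at 0.216 CPM.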

How the results depend on the processing

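Of the 52 genes' values, 39 of 1299 changed sign over 25 alternative settings for iTBS against sham, 5 of 1299 for cTBS against sham, 4 of 1300 for iTBS against cTBS and 2 of 1092 over 21 settings for the slope. These counts leave out the settings chosen after seeing the data, without the 3 libraries with most Ttr or with striatal markers. Sign changes of named genes in those settings are given below and come on top of the counts.

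For iTBS against sham, the sign changed for Rpl35 (0.0199 with Malat1 and striatal covariates, 0.0078 without the 3 libraries with most Ttr), Rpl5 (0.000299 with both covariates) and Rplp1 (0.00517 with Malat1, 0.018 with both). Single omissions ranged from -0.087 to 0.033 for Rpl35, -0.089 to 0.0399 for Rpl5, -0.16 to 0.0082 for Rplp0 and -0.102 to 0.0862 for Rplp1. For cTBS against sham, the number higher at an unadjusted p under 0.05 was 2 with Malat1 and 4 with both covariates, and 20 to 44 under single omissions. The sign changed for Rpl38 (-0.00187) and Rps2 (-0.015) with Malat1, Rps12 (-0.0041) with both and Rps10 (0.25 and 0.27). The number called was 0 to 35 under single omissions.

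For iTBS against cTBS, the median was -0.166 with Malat1, the number lower at an unadjusted p under 0.05 was 16 with Malat1 and 16 with both, DESeq2 called 36, and single omissions called 0 to 46. Rpl24 was at -0.41 with Malat1, -0.55 with both, -0.072 without the 3 libraries and -0.078 to 0.27 under single omissions. The slope was called for 8 genes with library totals (13 lower at an unadjusted p under 0.05, Rplp2 at 0.0086). It was called for 46 with no filter, 49 with no group term and 45 without the 3 libraries. Over all genes, in the same order, 8402 of 22997, 12122 of 45314, 12262 of 22997 and 10705 of 23992 were called. Malat1 differed by -0.29 to 0.38 (iTBS minus sham) and -1.58 to -0.85 (cTBS minus sham) under single omissions. The cause of these changes was not tested.

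Same-numbered libraries had correlations of deviations from -0.564 to 0.717. The labels do not say whether a number pairs animals, and correlations of same-numbered libraries alone cannot decide it. With a replicate block the medians were -0.089, 0.21 and -0.30 and no member was called. Over all 22998 genes, edgeR then called 5 for iTBS against cTBS (1 higher, 4 lower) and 0 in the other comparisons. In the comparisons with cTBS, 32 and 47 members were at an unadjusted p under 0.05. Of all 22998 genes, 1898 were higher in cTBS than sham and 2703 lower in iTBS than cTBS at that threshold. The lowest counts, those of Rpl24 and Rps10, limit these rows, which also enter the family's mean level. Without both genes the group means of that level were 6.15 for sham, 6.07 for iTBS and 6.37 for cTBS. With them they were 5.89, 5.82 and 6.10. The Pearson r of that level with Malat1, after subtracting group means, was -0.70 without both genes and -0.63 with them. The Spearman rho was -0.74 and -0.67, in that order.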
